A study of Homo sapiens with 20 samples.

Results

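Voltage-gated sodium and calcium channels were followed through the conversion of human neural progenitor cells into neurons. The set held 36 genes: 9 pore-forming alpha and 3 beta subunits of sodium channels, and 10 pore-forming alpha1, 4 alpha2delta, 4 beta and 6 gamma subunits of calcium channels. Each gene was found by its symbol among the 20237 coding records of the series, and the record with the highest mean level over the days was kept where a symbol had several. SCN3A was the gene with 2 records, and its second one, on chromosome 3 and shared with another symbol, averaged 0.0226 FPKM and was set aside.

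Polyadenylated RNA was sequenced from progenitors of the widely used human embryonic stem cell line H1 over 7 days of differentiation. Day 0 cells were in proliferation medium with N2, B27 lacking vitamin A, and FGF, which sustains progenitor division. At all later days the cells were in differentiation medium, in which FGF was left out and BDNF, a neurotrophic factor, was present alongside B27 lacking vitamin A. Cells of days 0, 1, 2 and 4 grew on Matrigel, and cells of days 5, 11 and 18 had been replated at day 4 onto poly-D-lysine and laminin, so that the step from day 4 to day 5 also held a change of surface. The labels list 3 cultures per day and 2 at day 5, where the submitters took out an outlier, all from the single line H1. The values are FPKM (sequenced fragments relative to transcript length and library size), 1 estimate per record and day made by the authors over all cultures of that day. No spread between cultures could therefore be given, no difference was tested, and neighbouring values in any order of levels cannot be told apart.

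Voltage-gated sodium channels open when the membrane depolarises and carry the rising phase of the action potential. Voltage-gated calcium channels turn depolarisation into calcium entry, which drives transmitter release, firing patterns and gene expression. The alpha and alpha1 subunits form the pore, whereas the smaller subunits set how many channels reach the surface and how they gate. Developing neurons are known to exchange one set of alpha subunits for another as they gain excitability.

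Of the 36 genes, 25 had a mean of at least 0.1 FPKM over the 7 days and entered the comparisons, which were made as differences in log2(FPKM + 0.1), a scale that understates the change of low genes. The other 11 were SCN4A, SCN10A, SCN2B, SCN4B, CACNA1D, CACNA1F, CACNA1I, CACNA1S, CACNA2D4, CACNG2 and CACNG3, and the deposited table marks these 11 as holding too few fragments at all 6 steps between days. CACNA1D lay just under the limit at a mean of 0.0976 FPKM and CACNA2D3 just above it at 0.119 FPKM. Of the 25 that passed, 20 had enough fragments at all 6 steps and 5 at some of them.

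Between day 0 and day 18 most channel genes lay higher while most coding genes lay lower. At least 2-fold higher at day 18 were 16 of the 25 channel genes (64%), against 10.6% of the 14107 coding records that passed the same limit. None of the 25 was 2-fold lower, against 28.2% of coding records. CACNA2D3 passed the limit only through its day 18 level; with the limit set on the days before day 18, 15 of 24 were higher and 0 lower, against 10.3% and 28.4% of 14064 coding records. The median difference was 1.26 on the log2 scale for the channels, with quartiles of 0.80 and 2.19, and -0.52 for coding records. Above 0 were 22 of the 25 channel genes and 29.1% of coding records. The 3 below 0 were SCN8A, SCN9A and CACNG8. The 9 that missed 2-fold either way included CACNB3 and SCN7A, each with a log2 difference of 0.95.

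The deposited values as a whole were lower at the end. The FPKM total over all records was 413978.5 at day 0 and 251155.9 at day 18, and the median difference of the 11793 coding records with a mean of at least 1 FPKM was -0.60. Taken relative to that median, 21 of 25 channel genes were 2-fold higher and 0 were lower, against 19.3% and 12.1% of coding records, and all 25 lay above it, SCN8A, SCN9A and CACNG8 included. With 1 added in place of 0.1 before taking logs, 8 of the 25 remained 2-fold higher, against 5.90% of coding records: SCN1A, SCN2A, SCN3A, SCN3B, CACNA1B, CACNA1H, CACNA2D1 and CACNA2D2.

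**Figure D1:**
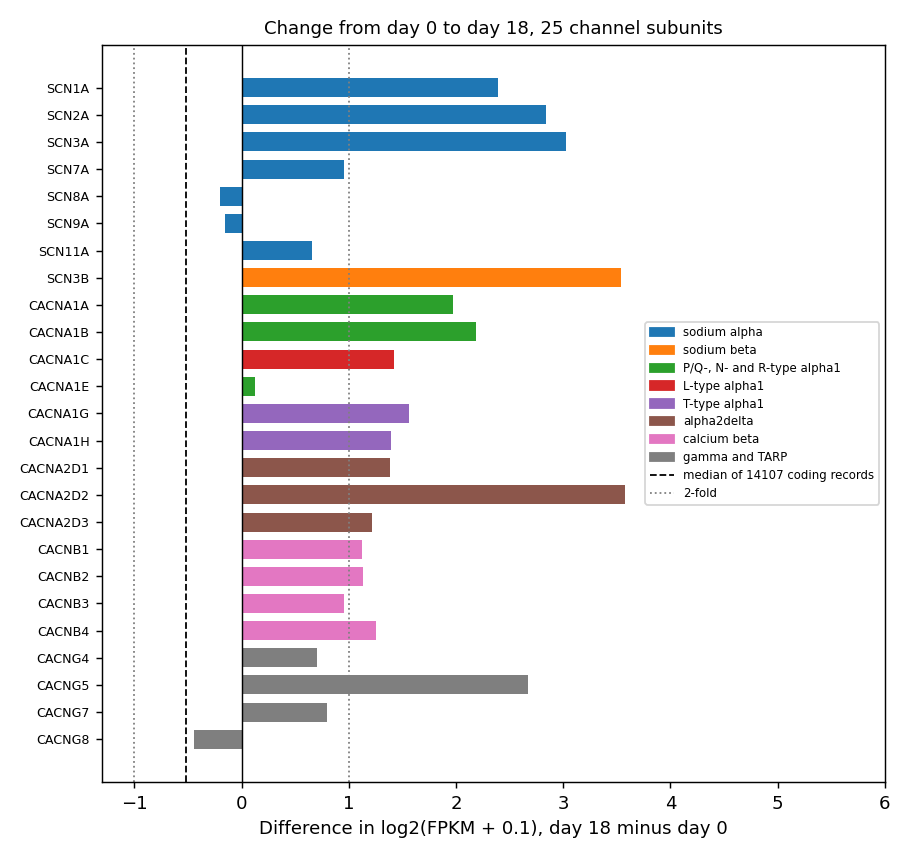
Difference in log2(FPKM + 0.1) between day 18 and day 0 for the 25 channel genes with a mean of at least 0.1 FPKM, 1 bar per gene, coloured by subunit family and computed from 1 pooled value per day, with dotted lines at 2-fold and a dashed line at the median of 14107 coding records. SCN3B and CACNA2D2 have the longest bars, at 3.54 and 3.58, and all 25 bars end to the right of the dashed line.

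Neuronal markers moved in the same direction over the same days. All 8 of the listed neuron genes were 2-fold higher at day 18, and their summed level went from 169 to 1140 FPKM. MAP2, the most abundant of them at day 0 with 93.5 FPKM, was marked with a failed estimate at 2 of the steps between days. STMN2 alone went from 32.3 to 727 FPKM. Among 6 progenitor genes 1 was lower (NES) and 1 higher (PAX6), and the sum of the 6 went from 3660 to 1790 FPKM. Most of that sum was VIM, which was not 2-fold different, at 2948 FPKM on day 0 and 1493 FPKM on day 18. All 4 genes of dividing cells were lower, with a sum of 354 FPKM at day 0 and 63.4 FPKM at day 18. Of the mesenchyme list 2 of 4 were lower (TAGLN and COL1A2), the sum going from 402 to 24.0 FPKM, with COL1A1 listed at 0 on all days. TAGLN alone went from 367 to 19.4 FPKM. Of 5 astrocyte and oligodendrocyte genes read here 2 passed the limit, of which MBP was lower, and their sum ran between 0.430 and 0.900 FPKM, with GFAP at most 0.186 FPKM. The 6 heart and skeletal muscle genes summed to at most 0.816 FPKM on any day. In bulk RNA, more cells of a type and more RNA per cell cannot be told apart, and the part of these shifts in the channel values was not tested.

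The 9 sodium channel alpha subunits together made up 17.3 FPKM at day 0 and 38.2 FPKM at day 18, a ratio of 2.20. The composition differed between the days as well. SCN8A, the main alpha subunit at axon initial segments and nodes of Ranvier of mature neurons, supplied 56.9% of the sum at day 0 and 22.5% at day 18. SCN3A, the alpha subunit best known from fetal brain, supplied 10.4% at day 0 and 40.4% at day 18. From day 0 to day 18 the shares of SCN1A and SCN2A went from 4.33% to 11.4% and from 3.95% to 14.5%.

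SCN3A measured 1.80, 1.59, 2.25, 3.16, 5.74, 11.9 and 15.4 FPKM over the 7 days in time order. It was lowest at day 1, higher at every step after that, and 8.57-fold higher at day 18 than at day 0 as a plain FPKM ratio. SCN2A, which carries much of the early sodium current of excitatory neurons, read 0.685, 0.779, 0.772, 0.983, 1.46, 2.51 and 5.53 FPKM over the same days. Its level stayed under 1 FPKM through day 4 and ended 8.07-fold above day 0. For SCN1A, the alpha subunit prominent in inhibitory interneurons, the daily levels were 0.751, 0.390, 0.272, 0.596, 0.671, 1.83 and 4.36 FPKM. SCN1A first went down, to its lowest level at day 2, and lay above its starting level only from day 11 on, at a day 18 ratio of 5.80. Only 0.899% to 1.85% of the read-length stretches of SCN1A, SCN2A and SCN3A, and 1.13% of those of SCN9A, also occurred in another member, and none of the other 32 genes shared any, so that few reads could be placed in either of a pair.

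SCN8A showed no such climb. Its levels were 9.86, 12.4, 10.5, 11.7, 14.8, 14.1 and 8.59 FPKM, the highest at day 5 and the lowest at day 18, a ratio of 0.871 to day 0. SCN8A was the most abundant alpha subunit on every day up to day 11, and SCN3A was at day 18. SCN9A, known for its role in pain-sensing neurons, kept between 2.51 FPKM at day 11 and 4.85 FPKM at day 2, with a day 18 ratio of 0.899. For both genes the direction depends on the scale: the log2 differences of -0.20 and -0.15 became 0.40 and 0.45 relative to the coding median.

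The remaining alpha subunits were scarce. SCN7A, a divergent member known as a sensor of sodium level, ranged from 0.182 FPKM at day 11 to 0.553 FPKM at day 2. SCN11A, a channel of sensory neurons, ranged from 0.113 FPKM at day 0 to 0.326 FPKM at day 1. SCN10A, another sensory neuron channel, was at most 0.00288 FPKM, and SCN4A, the skeletal muscle channel, at most 0.0250 FPKM. Among 5 genes listed as sensory neuron markers, 3 were higher at day 18 (POU4F1, ISL1 and PRPH) and 1 was lower (RUNX1), with POU4F1 at 41.7 FPKM on day 11.

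**Figure D2:**
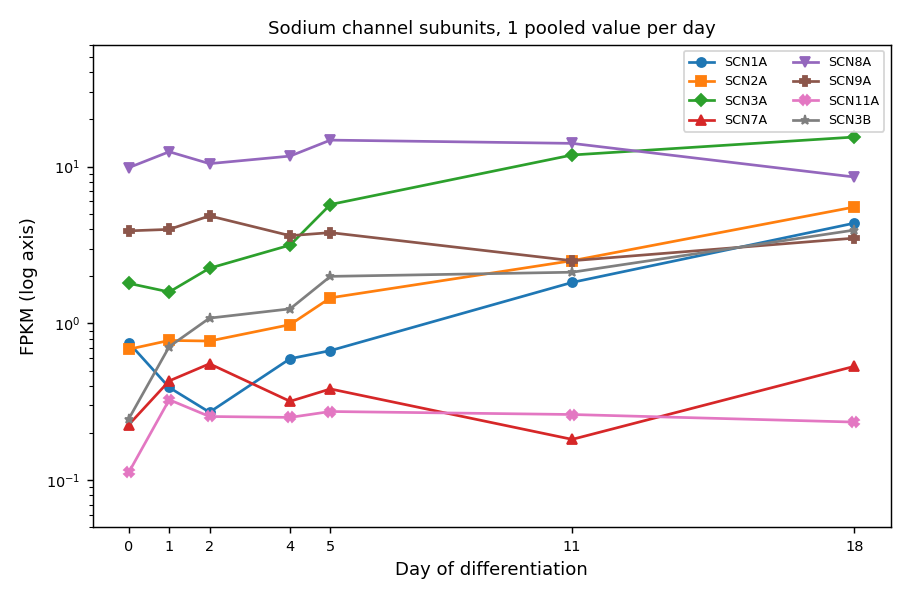
FPKM of the 7 sodium channel alpha subunits and 1 beta subunit that passed the limit, on a log axis, against day of differentiation, each point being 1 pooled value per day. SCN8A lies highest up to day 11 and is passed by SCN3A at day 18, while the line of SCN3B starts at 0.247 and ends at 3.94 FPKM.

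**Figure D3:**
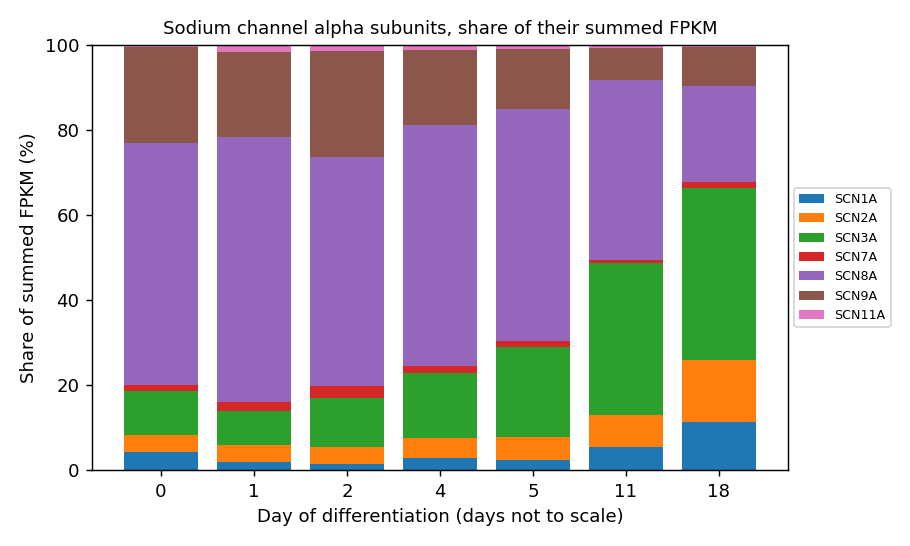
Share of the summed FPKM of the sodium channel alpha subunits held by each of the 7 that passed the limit, in percent, 1 bar per day with days not drawn to scale. The SCN8A band narrows from 56.9% at day 0 to 22.5% at day 18 and the SCN3A band widens from 10.4% to 40.4%.

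A single sodium channel beta subunit carried nearly all of that family. SCN3B, an accessory subunit that modulates gating and surface delivery of sodium channels, measured 0.247, 0.711, 1.08, 1.24, 2.00, 2.12 and 3.94 FPKM over the 7 days. It was higher at each of the 6 steps and 15.9-fold higher at day 18 than at day 0, and it held 92.4% of the family sum at day 0 and 96.8% at day 18. SCN4B reached 0.117 FPKM and SCN2B 0.0143 FPKM, both at day 18. These last genes encode the beta subunits joined to the pore by a disulfide bond.

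Sodium channel genes lie close together in the genome. In hg19 coordinates SCN3A (chr2:165944032-166060577), SCN2A (chr2:166095912-166248818), SCN1A (chr2:166845671-166930149), SCN9A (chr2:167051704-167232497) and SCN7A (chr2:167261539-167350717) follow one another on chromosome 2. SCN3A and SCN2A are transcribed away from each other, with 35334 bases between their starts. The first 3 genes of the row were at least 2-fold higher at day 18 on the log2(FPKM + 0.1) scale. SCN9A was not, and SCN7A fell just short on that scale at 0.95, with a plain FPKM ratio of 2.35. SCN8A lies apart, on chromosome 12 (chr12:51985020-52202297).

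The DNA at the annotated starts of these genes was also read. The 300 bases running from 270 before to 30 after the outermost start of each record were read from the hg19 reference. They are shown for SCN2A, an alpha subunit that was higher at day 18, for SCN8A, one that was not, and for CACNA2D2, which was past 2-fold by day 1, with every CG pair in capitals. The windows are chr2:166095642-166095941 (plus strand), chr12:51984750-51985049 (plus) and chr3:50540863-50541162 (minus), each written 5′ to 3′ on the strand of its gene.
SCN2A: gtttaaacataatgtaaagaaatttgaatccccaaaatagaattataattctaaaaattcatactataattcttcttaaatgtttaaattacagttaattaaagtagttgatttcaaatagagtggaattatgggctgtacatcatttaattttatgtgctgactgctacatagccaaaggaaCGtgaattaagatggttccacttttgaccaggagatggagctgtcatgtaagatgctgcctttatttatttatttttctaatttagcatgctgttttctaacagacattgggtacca
SCN8A: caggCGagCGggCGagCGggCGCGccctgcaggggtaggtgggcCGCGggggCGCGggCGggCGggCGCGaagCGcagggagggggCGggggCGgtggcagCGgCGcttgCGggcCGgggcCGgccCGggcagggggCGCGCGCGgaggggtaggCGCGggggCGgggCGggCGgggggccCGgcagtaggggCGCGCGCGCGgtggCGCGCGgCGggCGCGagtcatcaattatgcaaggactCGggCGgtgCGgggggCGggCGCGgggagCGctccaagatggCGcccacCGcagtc
CACNA2D2: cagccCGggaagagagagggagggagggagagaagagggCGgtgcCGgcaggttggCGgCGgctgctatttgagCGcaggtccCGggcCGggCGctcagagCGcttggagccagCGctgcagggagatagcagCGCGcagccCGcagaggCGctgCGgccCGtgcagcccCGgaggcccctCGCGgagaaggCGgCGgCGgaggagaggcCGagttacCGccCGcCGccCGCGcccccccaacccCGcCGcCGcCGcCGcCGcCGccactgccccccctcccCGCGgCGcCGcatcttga
The SCN2A window held 1 CG pair at 29.7% G+C. The SCN8A window held 53 pairs at 84.0% G+C and the CACNA2D2 window 40 at 77.3%. The choice of start matters for CACNA2D2, whose RefSeq promoter window held 5 pairs at 60.3% G+C, while those of SCN2A and SCN8A held 2 pairs at 31.7% and 52 at 84.0%. Among the 25 channel genes that passed the limit, 4 windows were under 50% G+C (16%), that of SCN2A included, against 13.8% of 14092 coding records that passed it. The median window had 71.0% G+C in the channels and 63.3% in those records.

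Short letter patterns were searched on both strands of the same windows. The left and right parts of the element bound by REST, a repressor of neuronal genes, are TCAGCACC and GGACAGC, and 0 of the 25 windows held either, against 1.64% and 6.22% of the 14092 coding windows that passed the limit. Of the 11 genes under the limit, 0 held the first and 1 held the second. The E-box CAGCTG occurred in 4 of 25 (16%, against 15.2%), the E-box CAGATG in 2 (8%, against 10.6%) and TATAAA in 1 (4%, against 7.10%). These matches describe the letters in the windows and nothing more.

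A second set of windows, the RefSeq promoters on GRCh38.p14 with 250 bases before and 50 after each start, covered 25 of the 36 genes, 17 of them among those that passed. There TCAGCACC, GGACAGC and TATAAA were found in 0 of 17, CAGCTG in 2 and CAGATG in 1, against 1.72%, 6.83%, 9.44%, 17.6% and 11.5% of 12972 promoters. Among the 8 genes under the limit TCAGCACC was in 1, CACNG3.

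The calcium channel alpha1 subunits fall into high-voltage-activated L-type, P/Q-, N- and R-type channels and low-voltage-activated T-type channels. The summed FPKM of each class was higher at day 18 than at day 0, by a ratio of 3.70 for the P/Q-, N- and R-type group, 2.96 for L-type and 2.81 for T-type.

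The N-type gene led the first of these groups on every day. CACNA1B, the N-type pore that triggers transmitter release, measured 0.631, 1.23, 1.55, 1.58, 2.37, 2.69 and 3.24 FPKM over the 7 days, higher at each of the 6 steps. Its share of the group sum was 54.3% at day 0 and 75.4% at day 18. CACNA1A, the P/Q-type pore of presynaptic terminals and Purkinje cells, had levels of 0.0617, 0.0589, 0.142, 0.214, 0.408, 1.18 and 0.536 FPKM. It peaked at day 11, was 2-fold lower at day 18 than at day 11 by a narrow log2 difference of -1.01 that lost the call after either rescaling, and was marked as too low for a comparison at 3 of the 6 steps. CACNA1E, the R-type pore, took a different course, at 0.468, 0.168, 0.0617, 0.0973, 0.159, 0.114 and 0.521 FPKM. It dipped to its lowest level at day 2 and came back to a ratio of 1.11 at day 18, with too few fragments at 4 of the 6 steps.

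CACNA1C stood almost alone among the L-type pores, which couple depolarisation to gene expression in neurons and to contraction in muscle. It measured 0.821, 0.494, 0.562, 0.458, 0.957, 1.12 and 2.37 FPKM, lowest at day 4 and 2.89-fold above day 0 at day 18. CACNA1D, the other L-type pore known from neurons, reached 0.145 FPKM at day 18. The retinal CACNA1F and the skeletal muscle CACNA1S were at most 0.00362 and 0.00836 FPKM on any day.

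CACNA1H was the most abundant alpha1 subunit on every day. This T-type pore, which opens at small depolarisations, measured 2.44, 4.10, 4.53, 3.54, 4.28, 4.49 and 6.59 FPKM and made up between 92.9% and 96.9% of the T-type sum. Its day 18 level was 2.70-fold that of day 0. CACNA1G, a T-type pore of thalamic and cerebellar neurons, was at 0.0751, 0.250, 0.250, 0.227, 0.153, 0.321 and 0.417 FPKM, with too few fragments at 2 of the 6 steps. The third T-type gene, CACNA1I, reached 0.0790 FPKM at day 18.

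**Figure D4:**
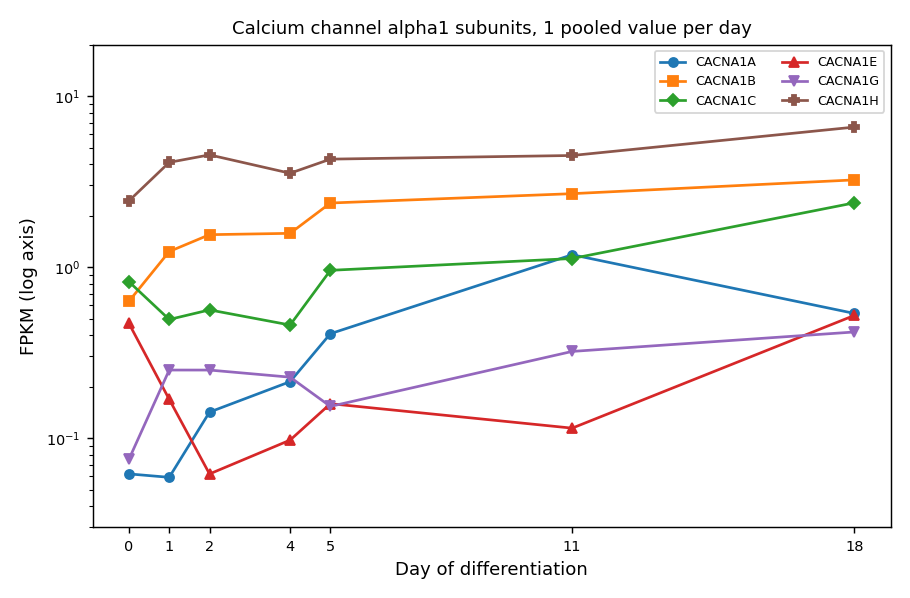
FPKM of the 6 calcium channel alpha1 subunits that passed the limit, on a log axis, against day of differentiation, each point being 1 pooled value per day. CACNA1H lies highest throughout, CACNA1A peaks at 1.18 FPKM on day 11, and CACNA1E dips to 0.0617 FPKM on day 2.

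Alpha2delta subunits sit on the outer face of calcium channels and raise their number at the surface, and CACNA2D1 and CACNA2D2 bind the drug gabapentin. CACNA2D2 measured 0.423, 1.27, 2.09, 2.56, 2.96, 4.39 and 6.14 FPKM, higher at each of the 6 steps and 14.5-fold higher at day 18 than at day 0. CACNA2D1 was the most abundant of the family at 6.16, 6.84, 6.91, 8.48, 11.2, 15.6 and 16.3 FPKM. Over the same days the CACNA2D1 share of the family sum went from 92.0% to 71.6% and the CACNA2D2 share from 6.32% to 27.0%. CACNA2D3 was low, at 0.0758, 0.0531, 0.0475, 0.0809, 0.0868, 0.180 and 0.307 FPKM, and was marked as too low for a comparison at 5 of the 6 steps. The last member, CACNA2D4, was at most 0.0392 FPKM.

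Calcium channel beta subunits bind the inside of the pore and carry it to the membrane. All 4 were highest at day 18, and their sum went from 17.4 to 35.8 FPKM. CACNB3, a neuronal form and the most abundant, measured 11.5 FPKM at day 0 and 22.3 FPKM at day 18, a ratio of 1.94. CACNB1, the form that also serves skeletal muscle, was at 4.50, 4.45, 5.89, 4.79, 5.96, 7.75 and 9.91 FPKM. CACNB4, a form prominent in cerebellum, was at 0.897, 0.749, 0.825, 0.788, 1.19, 1.78 and 2.28 FPKM. CACNB2, the main cardiac form, was at 0.532, 0.686, 0.447, 0.602, 0.584, 0.783 and 1.29 FPKM. The beta family kept its composition, CACNB3 holding 66.0% of the sum at day 0 and 62.4% at day 18.

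Most genes named as gamma subunits serve as TARPs, proteins that bring AMPA-type glutamate receptors to synapses. CACNG4 and CACNG7 had the highest FPKM values of the set on day 0 and on day 18, and the family sum had a ratio of day 18 to day 0 of 1.65. CACNG4 measured 25.5 FPKM at day 0, was lowest at 18.7 FPKM on day 1 and highest at 41.5 FPKM on day 18. CACNG5 was at 0.0818, 0.118, 0.107, 0.207, 0.285, 0.897 and 1.06 FPKM, 12.9-fold higher at day 18 than at day 0, with too few fragments at 3 of the 6 steps. CACNG8 was the only channel gene that passed the limit with its highest level at day 0, 2.53 FPKM, and it measured 1.83 FPKM at day 18, a log2 difference of -0.45 that became 0.15 relative to the coding median. CACNG2 and CACNG3, the forms best known from cerebellum and cortex, reached 0.114 and 0.103 FPKM at day 18.

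The level of CACNG7 cannot be assigned to that gene alone. CACNG7 measured 20.8, 26.1, 29.8, 29.7, 31.3, 34.1 and 36.3 FPKM, and a noncoding record on the opposite strand whose exons cover 72.7% of its exon bases measured 21.9, 25.7, 28.6, 27.7, 29.8, 33.3 and 35.4 FPKM. Nothing in the sources states that reads were separated by strand. Opposite-strand exons also cover 39.5% of CACNA1C and 33.2% of CACNB1, under records of at most 0.218 and 0.546 FPKM on any day. For CACNB2, at a mean of 0.703 FPKM, 2.37% of exon bases lie under exons of NSUN6, at a mean of 8.66 FPKM. The part of NSUN6 reads in the CACNB2 level was not tested.

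**Figure D5:**
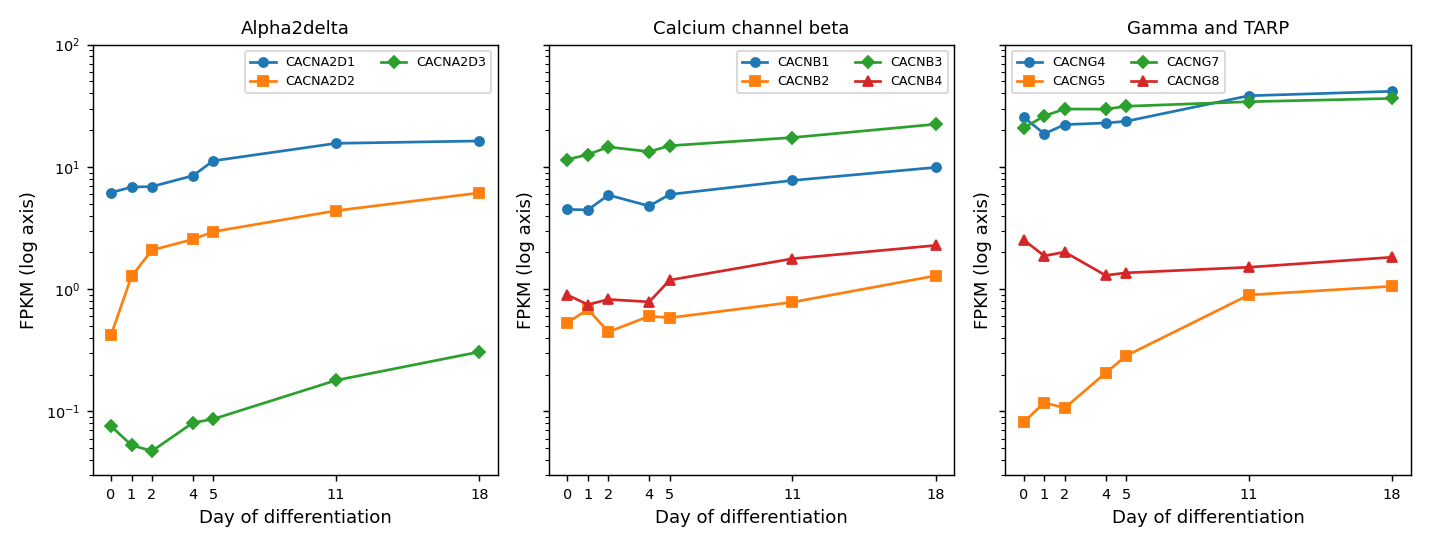
FPKM of the alpha2delta, calcium channel beta, and gamma and TARP subunits that passed the limit, on a shared log axis, against day of differentiation, each point being 1 pooled value per day. CACNA2D2 and CACNG5 cover the widest range, from 0.423 to 6.14 and from 0.0818 to 1.06 FPKM, while CACNB3, CACNG4 and CACNG7 stay above 10 FPKM on all days.

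The 16 genes that were 2-fold higher at day 18 did not reach that level together. By day 1 SCN3B and CACNA2D2 were past 2-fold above day 0, CACNA1B followed at day 2, and SCN3A, CACNA1A and CACNG5 at day 5. SCN1A, SCN2A, CACNA1G and CACNA2D1 were past 2-fold from day 11, CACNA1G having stood just under that line at day 1 with a log2 difference of 0.9989, and CACNA1C, CACNA1H, CACNA2D3 and CACNB1, CACNB2 and CACNB4 at day 18. Day 18 was the highest of the 7 days for 19 of the 25 channel genes (76%), against 11.7% of coding records. Higher at each of the 6 steps were 4 genes: SCN3B, CACNA1B, CACNA2D1 and CACNA2D2.

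Step by step, the first day and the last 2 intervals held all of the 2-fold differences of the channel genes. Coding records also had their largest shares at these steps, and the last 2 intervals were longer than the others. At the remaining steps the coding shares were at most 1.11%, so a count of 0 among 25 lay near them. From day 0 to day 1, the first day after FGF withdrawal, 3 channel genes were higher (SCN3B, CACNA2D2 and SCN11A) and 1 was lower (CACNA1E), against 4.61% and 3.68% of coding records. After rescaling, CACNA1E was no longer called, and the counts were 4 higher and 0 lower relative to the coding median and 5 and 0 with equal FPKM totals. The coding shares for this step are as deposited, and none is given after rescaling. SCN11A passed narrowly, with a log2 difference of 1.00. From day 1 to day 2 the channel count was 0 in both directions, against 0.269% of coding records higher and 0.298% lower. It was again 0 from day 2 to day 4, against 0.184% and 1.11%. The same held from day 4 to day 5, against 0.432% and 0.106%, although 23 of the 25 were above 0 on that step, with a median log2 difference of 0.27 against -0.06 for coding records.

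Between day 5 and day 11, 4 channel genes were 2-fold higher (SCN1A, SCN3A, CACNA1A and CACNG5) and 0 lower, against 2.56% and 4.57% of coding records. Set against day 4 in place of day 5, which had 2 cultures, the count was 7. Day 4 cells had not been replated, so this comparison also held the change of surface and a longer interval. No share of coding records is given for that pair of days, so this count has no background beside it. Between day 11 and day 18, 5 were higher (SCN1A, SCN2A, SCN7A, CACNA1C and CACNA1E) and CACNA1A was lower, against 1.66% and 3.54% of coding records. SCN1A was called as higher at both of these late steps, and CACNA1A as higher at the first and lower at the second. After either rescaling CACNA1A was no longer 2-fold lower, and the counts for the last step were 6 higher and 0 lower. Here too the coding shares are as deposited, with none given after rescaling.

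Proteins that anchor, tune or repress these channels were read as a list of 25 partner genes. Of the 24 that passed the limit, 12 were at least 2-fold higher at day 18 and 5 lower, beside the 10.6% and 28.2% of coding records given above, with a median log2 difference of 1.07. CALM2, CALM3 and FGF11 were found in records shared with other symbols. The list was drawn up with results of these data known.

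Scaffolds of the axon initial segment, where sodium channels cluster, were among the higher ones. ANK3, which encodes ankyrin-G, measured 10.4 FPKM at day 0, 42.5 at day 11 and 29.0 at day 18. Its neighbour in that structure SPTBN4, a beta spectrin, went from 0.0138 to 1.09 FPKM, and NFASC, the adhesion molecule neurofascin, from 2.46 to 22.2 FPKM. NRCAM, a related adhesion molecule, was at 43.3 FPKM at day 0 and 43.2 at day 18. ANK2, an axonal ankyrin, and CNTN1, an axonal adhesion protein, had log2 differences of 1.83 and 1.94. Of the intracellular FGF-like proteins that bind the tails of sodium channels, FGF14 went from 0.991 to 4.13 FPKM. FGF13, from 11.3 to 19.9 FPKM, and FGF11, from 5.51 to 7.91 FPKM, were higher but missed 2-fold. Only FGF12 was lower, going from 7.91 to 3.38 FPKM.

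Presynaptic and regulatory partners followed. RIMS1 and RIMBP2, which tether calcium channels at the active zone, went from 0.515 to 3.64 FPKM and from 0.707 to 2.18 FPKM between day 0 and day 18. Their relative RIMS2 measured 5.27 FPKM at day 0 and 4.77 at day 18. PRRT2, a presynaptic protein that binds sodium channels, was at 7.0 FPKM and 23.9 FPKM on those days, and NEDD4L, a ubiquitin ligase that removes sodium channels from the membrane, at 6.27 and 25.9 FPKM. Of the small GTPase-like inhibitors of calcium channels, REM2 went from 0.307 to 5.84 FPKM, GEM from 1.95 to 0.879 FPKM, and REM1 was listed at 0. The L-type adaptor STAC went from 4.10 to 0.418 FPKM, its relative STAC2 from 0.0468 to 0.268 FPKM, and CABP1, a calcium-binding modulator of calcium channels, from 0.505 to 0.0637 FPKM. REST itself measured 7.68 FPKM at day 0 and 3.11 FPKM at day 18, a log2 difference of -1.28.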

How the data were processed

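RNA of 20 cultures was sequenced by the authors from TruSeq poly(A) libraries as paired-end reads. Reads were aligned to hg19 with TopHat2, per the submitters' processing notes, assembled with Cufflinks and quantified with Cuffdiff2 at default options. Versions of these programs are not given in the sources used here. The deposited FPKM values hold 1 estimate per record and day made by the authors over all cultures, and no column of a single sample. Depth and detection limits are therefore unknown, and no replicate error was computed. The deposited table of adjacent days also holds log2 fold changes, test statistics, p-values and q-values of the authors, which were not used; its note on whether a record had enough fragments was.

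Days were taken from the sample titles. Differences were computed on log2(FPKM + 0.1) in Python 3.11.15 (pandas 2.3.3, numpy 2.4.6, matplotlib 3.10.9) for coding records with a mean of at least 0.1 FPKM, and a difference of at least 2-fold was counted. The counting was tested on simulated data. The limma fit planned for single-sample values could not be made. Family sums add plain FPKM over all listed members, those under 0.1 included. All members that passed were named, those 2-fold different between days 0 and 18 with all 7 days. Partner genes were named where 2-fold different, along with some relatives that were not. Some listed genes and start windows are not reported here. Members, lists and tests were chosen with earlier results of these data known. As a check of the build, 98.1% of 4443 introns of the members had GT and AG ends in the reference genome. Alternatives covered the pseudocount, the limit on low values, the fold, rescaling, choice of records and, added after the data were seen, opposite-strand overlap and start windows.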

Additional observations from a re-analysis of the deposited data

How the results depend on the processing

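No paired analysis was possible because the files hold 1 pooled value per day, and for the same reason leaving out each replicate in turn was not run. No result changed direction between the settings tried, except for the single genes SCN8A, SCN9A and CACNG8, which lay below 0 as deposited and above 0 after either rescaling. Calls of 2-fold lower levels, CACNA1E from day 0 to 1 and CACNA1A from day 11 to 18, were lost after either rescaling. The count of 16 genes 2-fold different between day 0 and day 18 was 8 with a pseudocount of 1, 10 of 16 genes with a mean of at least 1 FPKM and 7 at 4-fold. With that pseudocount 5.90% of coding records were higher and 21.7% lower, and with that limit 7.57% and 29.9%. No share of coding records is given at 4-fold or 1.5-fold, or for single steps under other settings. With a pseudocount of 1, with that limit of 1 FPKM, at 1.5-fold and at 4-fold, the 4 genes from day 0 to day 1 became 0, 2, 10 and 0, and the 4 from day 5 to day 11 became 0, 2, 8 and 0. Day 11 against day 4, which spans the replating, gave 7, again with no coding share given. The 6 from day 11 to day 18 became 0 with a pseudocount of 1, 2 with the limit of 1 FPKM and 0 at 4-fold. The counts of 0 at the steps from day 1 to 2, day 2 to 4 and day 4 to 5 became 2, 1 and 1 with a pseudocount of 0.01, and 3, 3 and 4 at 1.5-fold. Equal FPKM totals gave 1 from day 4 to 5.

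The median log2 difference of 1.26 was 0.79 with a pseudocount of 1, 1.40 with 0.01, 1.32 with a limit of 1 FPKM and also without the 3 genes largely covered by opposite-strand exons, 0.97 for all 36 genes, 1.85 after recentring and 1.93 with equal totals. The last pair of settings multiply day 18 over day 0 by 1.51 and 1.65. With equal totals and after recentring, family ratios were 3.63 and 3.34 (sodium alpha), 25.1 and 23.0 (sodium beta), 4.88 and 4.48 (L-type), 6.10 and 5.60 (P/Q-, N- and R-type), 4.64 and 4.26 (T-type), 5.60 and 5.14 (alpha2delta), 3.39 and 3.11 (calcium beta), and 2.73 and 2.51 (gamma and TARP). The letters CAGCTG were in 2 of 17 RefSeq windows and in 4 of 25 windows at the record starts. For CAGATG these counts were 1 and 2. For TATAAA they were 0 and 1. Apart from these constructions, the cause was not tested. Summing all records of a symbol added only the low second record of SCN3A, and no kept channel record was shared with another symbol. These settings could therefore hardly change a count, and no count changed. The depth behind low values is unknown.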
